A study of Mus musculus with 2 samples.

Results

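The transcripts of sterol synthesis, sterol sensing and cholesterol transport were compared between the skeletal muscles of wild-type mice and mice null for Jhdm2a. The group holds 28 genes named by function: 18 enzymes that build cholesterol and 10 genes that sense sterols or move and store cholesterol. Probe sets were taken where the platform annotation gives exactly 1 gene symbol and that symbol is among the 28. This gave 59 probe sets for 26 of the 28 genes, out of 45037 probe sets and 18193 genes with such a probe set in all. Acat2 and Soat1 had no probe set named in the annotation used here. A probe set was called measured when its signal lay above a floor of 182 on both arrays, the 60th percentile of all non-control signals. Of the 59 probe sets, 36 were measured, 5 lay above the floor on 1 array and 18 on none, which left 24 measured genes. Mvd and Lss had no measured probe set.

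The samples were 2 Affymetrix Mouse Genome 430 2 arrays, 1 for each genotype, and each carried RNA combined from 3 male mice aged 3 months. Both groups descend from 129 embryonic stem cells, with 4 generations of backcrossing to C57BL/6. Jhdm2a, now named Kdm3a, encodes a demethylase of histone H3 lysine 9. The structure of the null allele and the muscle sampled are not given in the sources used here. The design sets the muscle RNA levels of one genotype against those of the other. With 1 pooled array per genotype there is no replicate check and no test. "Lower" and "higher" below describe these 2 arrays, and the number of arrays limits the precision. The Kdm3a probe set read 406 for the wild-type and 487.5 for the null pool, so it gave no support for the labels. Whether it lies in the disrupted part is not known here, so every direction below rests on the labels, and "wild-type array" and "null array" mean the arrays so labelled. Where a gene is said to read 2 signals, the wild-type value comes first. On the chromosome of Kdm3a lie 0 of the 28 genes.

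Cholesterol is made from acetyl-CoA. The mevalonate steps yield isoprenoid units, and the sterol branch turns squalene into lanosterol and then cholesterol. When membrane sterol is low, SCAP escorts the transcription factor SREBP-2 from the endoplasmic reticulum to the Golgi for cleavage, and the freed part turns on the synthesis genes. INSIG proteins hold SCAP back when sterol is plentiful, and INSIG1 is itself a target of SREBP, which makes a feedback loop. NPC1 and NPC2 release cholesterol from lysosomes, ABCA1 and ABCG1 export it under control of the liver X receptors (LXR), and STARD4 carries it between membranes. Skeletal muscle fibres make some sterol, while liver and myelinating cells run the pathway at high rates.

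The promoters of SREBP target genes typically carry a sterol response element beside binding sequences for the cofactors NF-Y (CCAAT box) and Sp1 (GC box). RefSeq promoter windows on GRCm38.p6 were matched for 22 of the 28 genes, in 28 windows because some genes have several start sites. Those without a match were Fdps, Fdft1, Sqle, Npc1, Abcg1 and Stard4. The 250 bases before each start site were searched on both strands for 4 motifs. These were TCACNCCAC, which is one form of the sterol response element; CCAAT as the core of the NF-Y site; GGGCGG as the core of the Sp1 site; and CACGTG as an E-box that SREBP proteins can also bind. In the windows printed here 0 bases lay in 2 motif matches at once. The genes shown are Insig1, Npc2, Hmgcs1, Idi1 and Insig2. Insig1 and Npc2 had the lowest gene values of the measured members, and Insig2 is the paralog that was higher. Hmgcs1 and Idi1 are synthesis enzymes lower in each measured probe set. So were others with a window that are not shown, such as Pmvk and Nsdhl. Hmgcs1 alone of the 22 genes held TCACNCCAC. Sequences run 5′ to 3′ in the direction of the gene and end at the base before the start site, and capitals mark the motif matches on either strand. Of the 3 start sites of Insig2 the one with the most matches is given.
Insig1, chr5:28071162-28071411, plus strand: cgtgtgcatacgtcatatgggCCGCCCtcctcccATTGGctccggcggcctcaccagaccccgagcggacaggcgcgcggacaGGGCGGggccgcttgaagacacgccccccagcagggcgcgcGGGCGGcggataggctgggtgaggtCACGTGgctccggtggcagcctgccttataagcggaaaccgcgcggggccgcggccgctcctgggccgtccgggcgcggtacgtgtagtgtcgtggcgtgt
Hmgcs1, chr13:119690101-119690350, plus strand: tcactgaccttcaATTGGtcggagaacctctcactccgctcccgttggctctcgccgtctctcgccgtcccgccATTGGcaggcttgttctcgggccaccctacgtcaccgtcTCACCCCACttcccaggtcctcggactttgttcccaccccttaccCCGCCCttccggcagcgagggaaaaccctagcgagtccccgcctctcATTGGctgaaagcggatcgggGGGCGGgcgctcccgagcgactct
Idi1, chr13:8885356-8885605, plus strand: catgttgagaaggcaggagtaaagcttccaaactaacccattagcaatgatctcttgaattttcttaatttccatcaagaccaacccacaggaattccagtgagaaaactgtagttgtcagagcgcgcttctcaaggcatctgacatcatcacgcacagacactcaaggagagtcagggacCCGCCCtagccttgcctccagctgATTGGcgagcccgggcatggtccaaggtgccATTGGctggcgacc
Npc2, chr12:84773113-84773362, minus strand: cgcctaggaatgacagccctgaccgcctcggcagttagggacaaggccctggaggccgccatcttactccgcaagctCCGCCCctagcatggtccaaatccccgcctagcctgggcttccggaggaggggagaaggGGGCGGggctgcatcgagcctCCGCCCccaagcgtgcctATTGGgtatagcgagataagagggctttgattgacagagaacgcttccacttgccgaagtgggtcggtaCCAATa
Insig2, chr1:121332590-121332839, minus strand: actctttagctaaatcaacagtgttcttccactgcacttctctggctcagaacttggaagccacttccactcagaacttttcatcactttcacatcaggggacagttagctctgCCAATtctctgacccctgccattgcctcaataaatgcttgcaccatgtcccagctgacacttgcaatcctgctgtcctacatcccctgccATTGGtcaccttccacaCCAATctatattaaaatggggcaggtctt

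Among the 15 synthesis enzymes with a window, 14 held CCAAT before at least 1 start site, all but Acat2, against 37.5% of all 27025 genes with a window. GGGCGG was found in 14 of the 15, all but Pmvk, against 35.4% of all genes. TCACNCCAC was found in Hmgcs1, 137 bases before its start, and in none of the other 14, against 1.22% of all genes. Of the 7 sensing and transport genes with a window, 5 held CCAAT, 6 held GGGCGG and 0 held TCACNCCAC. CACGTG was found in 3 of 15 synthesis enzymes and in 3 of 7 sensing and transport genes, Insig1, Scap and Abca1, against 6.86% of all genes. By single window, CCAAT stood in 14 of 18 windows of synthesis enzymes and 5 of 10 of the others, against 33.8% of all 32851 windows. These matches are letters in a window. They show no bound factor, and the absence of a match shows only that those letters are not there.

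**Figure D1:**
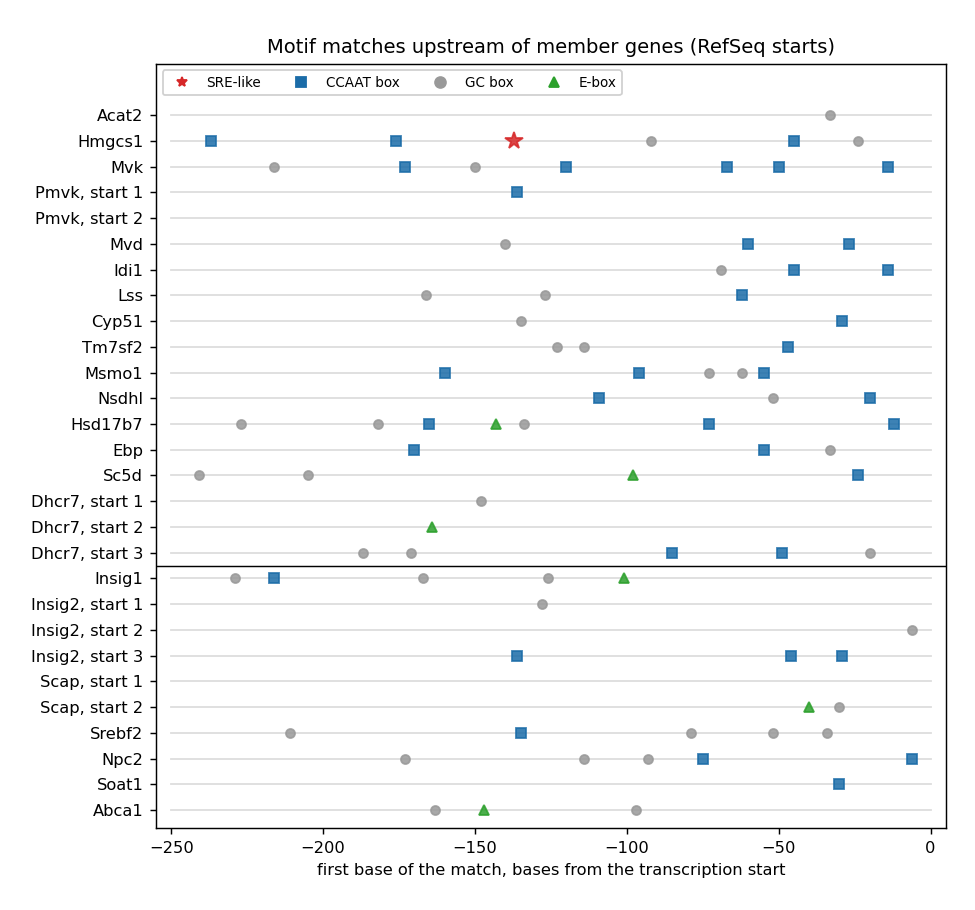
Positions of motif matches in the 250 bases before each RefSeq start site (x axis, bases from the start site) for the 28 windows of 22 genes, with synthesis enzymes above the line and sensing and transport genes below it. Blue squares (CCAAT) stand in 14 of 18 windows above the line and 5 of 10 below, and the 1 red star (TCACNCCAC) is in Hmgcs1.

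Most measured members were lower on the null array, and few by much. Of the 24 measured genes, 22 had a log2 ratio (null over wild-type) below 0, against 44.3% of all 9696 measured genes. The count was 21 of 24 after quantile normalization, against 42.7% of all genes at that setting, and with the brightest probe set, against 45.6%. It was 10 of 12 with the floor at the 75th percentile (all genes 41.7%), 23 of 26 at the 50th (44.7%) and 20 of 26 without a floor (48.7%). At least 1.5-fold lower were 6 of the 24, namely Insig1, Npc2, Pmvk, Idi1, Abca1 and Nsdhl, against 6.34% of all genes. None was 1.5-fold higher, 0 of 24 against 3.38% of all genes. At 2-fold, 3 members were lower (Insig1, Npc2 and Pmvk), against 2.37%, and 0 higher, against 0.371%. Pmvk fell short of 2-fold after quantile normalization (-0.99) and with a pseudocount of 50 added to each signal (-0.95). The median log2 ratio of the 24 was -0.40, and that of all genes 0.04. Counted by probe set, 30 of 36 were below 0, against 44.4% of all 15403 measured probe sets with 1 symbol, and 11 of 36 were at least 1.5-fold lower, against 6.73%. Not 1 of the 36 was 1.5-fold higher, against 5.31% of all probe sets.

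**Figure D2:**
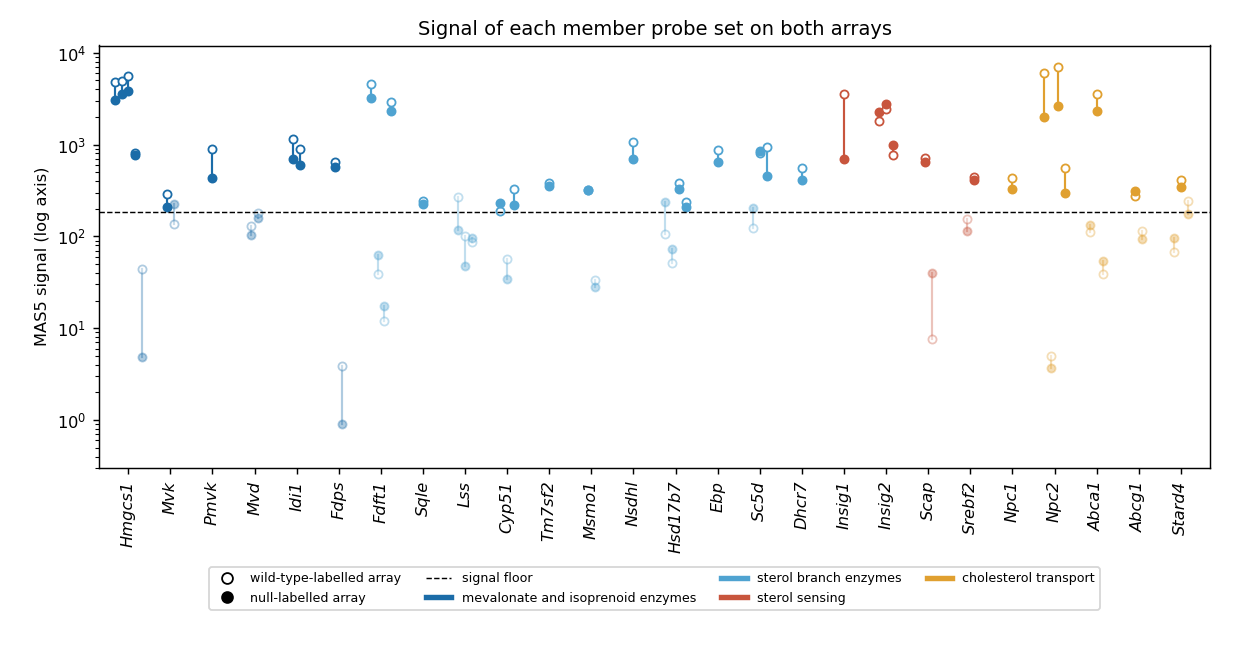
MAS5 signal (log axis) of all 59 member probe sets on the wild-type (open circles) and null array (filled circles), joined by a line and coloured by role. Pale symbols are probe sets not above the floor of 182 (dashed) on both arrays; the longest lines among measured probe sets belong to Insig1 and Npc2.

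Markers of other cell types differed between the arrays beside these values. The arrays did carry muscle RNA: 16 of 16 skeletal muscle fibre markers were measured, with a median log2 ratio of 0.17. Past 1.5-fold were 0, against 6.34% of all genes lower and 3.38% higher. The summed signal of the fibre markers was 351249 on the wild-type array against 394442 on the null array. All 8 measured adipocyte markers, of 12 named, were at least 2-fold lower, against 2.37% of all genes, with a median of -3.06. Their summed signal, over probe sets that passed the floor at least once, was 93548 and 29219. Every sum of marker signals here follows that rule. A probe set that passed on 1 array alone thus enters through the array where it is high, so the sums are no separate support for a direction. Of the brown adipocyte markers 7 of 11 were measured, with a median of -0.43. Below 0 were 7 of 7, against 44.3% of all genes, and at least 2-fold lower 3, against 2.37%. The 4 not measured were under the floor on the null array alone, with Elovl3 at least 11.5-fold, Otop1 at least 14.8-fold, Cpn2 at least 2.60-fold and the brightest Kcnk3 probe set at least 13.5-fold lower. Summed signals of the brown adipocyte markers, these 4 included, were 61787 and 21565.5. Of these sums, 20562 and 18805 came from Cox8b, whose log2 ratio was -0.13. Ucp1, the uncoupling protein of brown fat, read 14885 and 283, and Adipoq, the hormone adiponectin, 11443 and 1145. Of 18 hepatocyte markers 5 were measured. Below 0 were 5 of 5, against 44.3% of all genes, and at least 2-fold lower 3, against 2.37%. Summed signals of the hepatocyte markers were 22911 and 4666.5. Some markers entered these sums through the wild-type array alone, such as Apoa1 (1114 and 17.3) and Apoa2 (1266 and 123.5). Haptoglobin (Hp) read 7243 and 598, and albumin (Alb) 2635 and 361. Fgb, Fgg, Ahsg, Itih4 and Tat stayed under the floor in every probe set and pool, and Trf had no probe set assigned to it.

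Fat and liver cells express the sterol genes too. Their part in the lower sterol values was not tested, and in pooled bulk RNA fewer cells of a type cannot be told apart from less RNA per cell. Of the macrophage markers, cells rich in Npc2 and Abca1, 11 of 13 were measured. Below 0 were 9 of 11, against 44.3% of all genes. At least 1.5-fold lower was 1, or 9.09% against 6.34% of all genes. The macrophage markers had summed signals of 12803 and 10554 and a median of -0.34, with Cd163 lowest at -0.68. Schwann cells, which make sterol for myelin, had 7 of 11 markers measured. Above 0 were 6 of 7, against 5396 of all 9696 genes. The 1 below was S100b, at 1506 and 274 (-2.46). S100b also counts among the brown adipocyte markers at least 2-fold lower. The Schwann cell markers had a median of 0.57 and summed signals of 18730.5 and 25387. Erythroid markers, 4 of 8 measured, were 4 of 4 above 0, against 5396 of all 9696 genes. The summed signals of the erythroid markers were 14419.6 and 21629.9. None of these was tested against the sterol values.

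The first steps of the pathway were lower at most positions measured. Hmgcs1, which condenses acetoacetyl-CoA and acetyl-CoA to HMG-CoA, has 4 measured probe sets. They read 4838, 4911, 5622 and 803 on the wild-type array against 3089, 3523, 3851 and 777 on the null array. The 3 bright probe sets had log2 ratios of -0.65, -0.48 and -0.55, while the dimmest had -0.05, so the gene value was -0.43 ± 0.26 (SD of 4 probe sets). All 4 were lower on the null array, by unequal amounts, and all 4 are annotated to 1 deposited sequence, so they are not independent.

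Pmvk, the phosphomevalonate kinase, was the lowest of the enzymes. Its only probe set gave 885 and 434, which is 2.04-fold lower, and only 219 of the 9696 genes had a value as low or lower. Mvk, the mevalonate kinase one step earlier, read 292 and 211.5 (log2 ratio -0.47) in the 1 measured probe set. Its other probe set went the opposite way, from 138 to 223, with the first value under the floor, so the direction for Mvk rests on 1 dim probe set.

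Idi1, which interconverts the 2 isoprenoid building blocks, agreed between probe sets. They read 1143 and 903 on the wild-type and 700.3 and 599.6 on the null array. The gene value was -0.65 ± 0.08 (SD of 2 probe sets), 1.57-fold lower, and it stayed at least 1.5-fold lower in all 10 alternatives. Changes of the floor left it as it was, since both probe sets passed every floor. Fdps, which joins isoprenoid units to farnesyl diphosphate, read 653 and 573 (log2 ratio -0.19). Mvd, the decarboxylase of the same stretch, stayed under the floor on both arrays, at 178 and 160 in its brighter probe set. Over the 5 measured enzymes of this stretch, of 7 named, the median log2 ratio was -0.47 and 2 were at least 1.5-fold lower, against 6.34% of all genes.

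The sterol branch begins with Fdft1, squalene synthase. It read 4601 and 3254 in its brighter measured probe set and 2876 and 2349 in the other, with a gene value of -0.40 ± 0.15 (SD of 2 probe sets). Its other 2 probe sets, both under the floor, went from 38.9 to 63.4 and from 12.1 to 17.3, so the Fdft1 mean was 0.11 without a floor. Sqle, the epoxidase that adds oxygen to squalene, read 243 and 224 (-0.11), close to the floor. Lss, which closes the rings of lanosterol, read 267.5 on the wild-type array against 117 on the null array in its brightest probe set. The second value lies under the floor and the first is less than 2 times the floor, so no bound on the fold was set.

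The demethylation of lanosterol gave mixed values. Cyp51, the lanosterol 14-demethylase, had a probe set at 330 and 220 and another at 190 and 230, so its gene value of -0.15 ± 0.61 (SD of 2 probe sets) has no settled direction. Tm7sf2, a sterol 14-reductase, read 379 and 353.5 (-0.10). Msmo1, the methyl sterol oxidase, read 318 and 317, a log2 ratio of -0.0059 that became 0.016 after quantile normalization. Nsdhl, which removes carbon from position 4 of the sterol ring, read 1075 and 705, 1.52-fold lower, but less than 1.5-fold lower after quantile normalization and with a pseudocount of 50 added to each signal. Hsd17b7, the ketoreductase of the same complex, read 383 and 332 in one measured probe set and 239 and 209 in the other, with a gene value of -0.20 ± 0.01 (SD of 2 probe sets). Another Hsd17b7 probe set went from 106 to 235, the first value under the floor.

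The last steps toward cholesterol were lower where 1 probe set speaks for the gene. Ebp, the sterol isomerase, read 865 and 652.5, 1.33-fold lower. Dhcr7, the reductase that makes cholesterol from its 7-dehydro precursor, read 562 and 411, 1.37-fold lower. Sc5d, the desaturase before Dhcr7, had measured probe sets that disagreed. One read 943 and 452 (-1.06) and the other 810.1 and 861 (0.09), and the gene value of -0.49 ± 0.81 (SD of 2 probe sets) has no settled direction. A further probe set went from 125 to 204, starting under the floor. Over the 10 measured sterol branch enzymes, of 11 named, the median was -0.30 and 1 was at least 1.5-fold lower, or 10% against 6.34% of all genes. Whether this stretch differs from the earlier one was not tested.

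Sterol sensing held the lowest and the highest member. Insig1, a target of SREBP whose protein holds SCAP back, read 3579 on the wild-type and 690.5 on the null array in its only probe set. That is 5.18-fold lower (log2 ratio -2.37). It was the 57th lowest of 9696 genes and lay between -2.43 and -2.29 in all 10 alternatives. With its only probe set bright on both arrays, changes of floor or probe set could not move it. Only the alternatives that rescale or shift the signals could. Insig2, its paralog, whose transcript is less tied to SREBP, was higher in each of 3 probe sets. They read 1793, 2470.5 and 764 on the wild-type array and 2288, 2758 and 977.5 on the null array. The gene value was 0.29 ± 0.11 (SD of 3 probe sets), 1.22-fold higher, and positive in all 10 alternatives, of which changes of the floor left it as it was. That size is not unusual on these arrays, since 19.1% of genes reached it or more.

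The 2 genes that carry the sensing machinery itself were close to equal. Scap read 715 and 653 (-0.13). Srebf2, which encodes SREBP-2, read 445 and 410.5 (-0.12). Both differences are smaller than 0.29, the SD of log2 ratios between probe sets of 1 gene over 3719 genes.

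Among the transport genes the lysosomal protein Npc2 stood lowest. Npc2 binds cholesterol inside lysosomes and hands it to Npc1. Its 3 measured probe sets read 5978, 6960 and 552 on the wild-type array against 2009, 2645 and 296 on the null array. All 3 were lower, with log2 ratios of -1.57, -1.40 and -0.90, and the gene value was -1.29 ± 0.35 (SD of 3 probe sets), 2.44-fold lower and 152nd from the bottom of all genes. Npc1, its membrane partner, read 438 and 332, 1.32-fold lower.

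Of the exporters, Abca1, which loads cholesterol onto apolipoprotein A-I, read 3573 and 2320.4, 1.54-fold lower, in its 1 measured probe set. Its other 2 probe sets were under the floor on both arrays and higher on the null one, at 112 and 133.5 and at 39.4 and 53.7, so the Abca1 mean was -0.19, short of 1.5-fold, with the floor at the 50th percentile, and 0.024 without a floor. Abcg1, which exports cholesterol to larger lipoproteins, read 275 and 309 (0.17), a difference smaller than the SD of 0.29 between probe sets and -0.069 without a floor, so it has no settled direction. Stard4, a carrier between membranes whose gene responds to SREBP, read 411 and 345 (-0.25). Its second probe set also went down, from 245 to 177, ending under the floor. The third, under the floor on both arrays, went up from 67.4 to 97.1. The Stard4 mean was -0.064 without a floor.

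**Figure D3:**
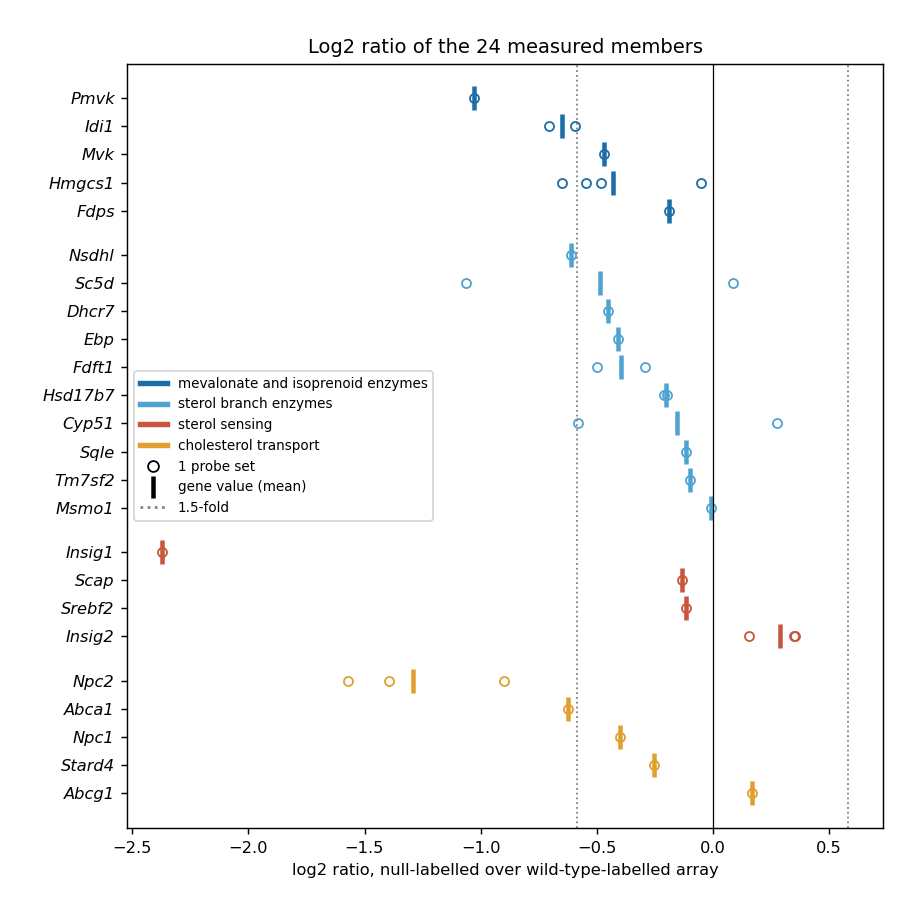
Log2 ratio (null over wild-type array) of the 24 measured members by role. Circles are probe sets, bars the gene value (mean over measured probe sets) and dotted lines mark 1.5-fold; Insig1 stands at -2.37 and Npc2 at -1.29, while 16 of the other 22 lie between the dotted lines and below 0.

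Set side by side, synthesis enzymes were mostly lower by small amounts, while sensing and transport genes were spread widely. All 15 measured synthesis enzymes were below 0, against 44.3% of all genes. Their median was -0.41, their mean -0.38 ± 0.26 (SD over genes) and their range -1.03 to -0.0059. The differences of Fdps, Sqle, Cyp51, Tm7sf2, Msmo1 and Hsd17b7 were smaller than 0.29, the SD between probe sets of 1 gene. Cyp51 and Sc5d have no settled direction. Below 0 were 14 of 15 after quantile normalization, against 42.7% of all genes at that setting, and with the brightest probe set, against 45.6%. The count was 6 of 7 with the floor at the 75th percentile (all genes 41.7%), 16 of 17 at the 50th (44.7%) and 14 of 17 without a floor (48.7%). Of the 9 sensing and transport genes, 7 were below 0, with a median of -0.25, a mean of -0.53 ± 0.83 (SD over genes) and a range from -2.37 to 0.29. At least 1.5-fold lower were 3 of 15 and 3 of 9, against 6.34% of all genes. The medians differed by -0.15 (synthesis minus sensing and transport), less than either SD over genes, and that difference was above 0 with the floor at the 50th percentile (0.088) or the 75th (0.22) and when passing the floor on 1 array was enough (0.0084). So neither class was lower than the other in a way that held. Leaving out Insig1 and Npc2, chosen after their values were seen, the other 7 sensing and transport genes had a median of -0.13.

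Agreement between probe sets bears on how far single values can be read, although probe sets of a gene share the same RNA and are not replicates. Of the 8 members with at least 2 measured probe sets, 6 had the same sign in all of them, the exceptions being Cyp51 and Sc5d. Over all 3719 such genes, 59.3% had 1 sign. The pooled SD between probe sets was 0.36 for these 8 members and 0.29 for all such genes. The 18 hybridisation control probe sets averaged -0.02 ± 0.09 (SD) on the same scale. These values describe how readings spread within the same 2 arrays, and not all of that spread need be error of measurement. How much mice, pools or repeated arrays differ is not in them. The share of all genes at least 1.5-fold lower varied little with brightness, from 5.24% among the 2424 dimmest genes to 7.92% among the next 2424. The share below 0 did vary, from 49.2% among the dimmest 2424 to 35.1% among the brightest 2424. The SD of log2 ratios was 0.35 among the dimmest and 0.53 among the brightest. The dimmest 2424, with mean signals of 184 to 391, held 9 members, and the brightest 2424 held 6: Hmgcs1, Fdft1, Insig1, Insig2, Npc2 and Abca1.

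**Figure D4:**
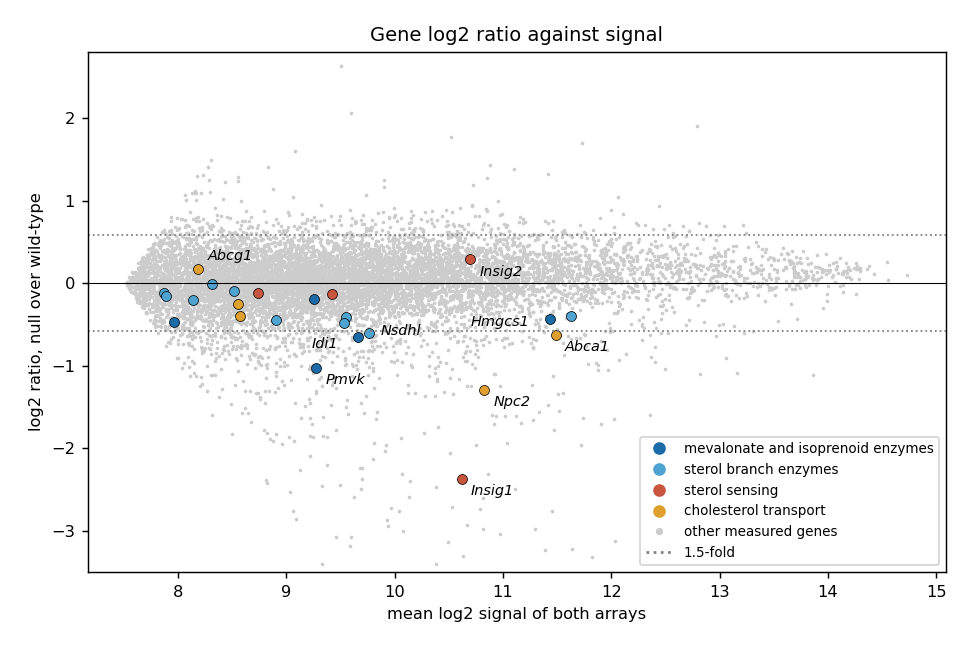
Gene log2 ratio against mean log2 signal of both arrays for 9696 genes (grey) and the 24 measured members (coloured by role); dotted lines mark 1.5-fold, and 19 genes below -3.5 are not drawn. Insig1 (-2.37) and Npc2 (-1.29) lie below most genes of like brightness, and Insig2 (0.29) lies inside the grey cloud.

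Other genes of the pathway were taken from lists fixed by function. Of 10 measured genes for SREBP processing and sterol-regulated degradation, of 12 named, the median was -0.05. At least 1.5-fold higher were 0, against 3.38% of all genes. At least 1.5-fold lower were 3, against 6.34%. These were Srebf1, which encodes the SREBP that drives fatty acid synthesis, at 3257 and 1883 (-0.79), Erlin2, part of the degradation machinery of the endoplasmic reticulum, at 870.2 and 506 (-0.78), and Pgrmc1, a heme-binding membrane protein, at 2235 and 1326 (-0.75). Mbtps2, the protease of the second SREBP cleavage, went the other way, at 1339 and 1885 (0.49).

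The isoprenoid genes that branch off before squalene were near the shares of all genes. Of 14 measured, of 15 named, 5 were below 0, or 35.7% against 44.3% of all genes, with a median of 0.08. At least 1.5-fold lower was 1, or 7.14% against 6.34%, and higher 0, against 3.38%. The 1 lower gene was Trit1, which attaches an isopentenyl group to transfer RNA, at 1128 and 567.5 (-0.99). Zmpste24, a protease of prenylated proteins, had 0.30, Dhdds, a dolichol synthase subunit, 0.29 and Coq2, of ubiquinone synthesis, 0.27. The difference between this list and the sterol enzymes was not tested.

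Of 20 other measured genes of cholesterol transport and hydrolysis, of 23 named, the median was 0.07. At least 1.5-fold lower were 0, against 6.34% of all genes, and higher 0, against 3.38%. The largest values were -0.54 ± 0.12 (SD of 3 probe sets) for Scarb1, the high-density lipoprotein receptor, -0.52 for Stard5 and -0.49 for the endocytic receptor Lrp1, and 0.43 for Stard3nl, which tethers endosomes to the endoplasmic reticulum. Abca2, a lysosomal transporter, read 411 on the wild-type array and under the floor on the other, at least 2.25-fold lower.

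Among LXR receptors and genes that respond to them, 5 of 7 were measured. At least 1.5-fold lower were 2, against 6.34% of all genes, and higher 0, against 3.38%. Nr1h3, which encodes LXR-alpha, read 600.6 and 306.5 (-0.97). Scd1, the stearoyl-CoA desaturase, which also stands in the fatty acid list below, had -3.22 ± 1.91 (SD of 2 probe sets), with its brighter probe set at 17182 and 4688. Mylip, an LXR-induced ubiquitin ligase, was higher at 0.44, and Lpcat3, a phospholipid acyltransferase, was at -0.41. Of the oxysterol and bile acid enzymes 5 of 10 were measured. Hsd3b7 was lower at -0.89, Cyp39a1 higher at 0.73, Scp2 had -0.42 ± 0.20 (SD of 4 probe sets) and Cyp27a1 0.30.

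Fatty acid synthesis and esterification, the lipid pathway driven by the sister factor SREBP-1, was lower by far more than sterol synthesis. Of 18 measured genes of 19 named, 13 were at least 1.5-fold lower, against 6.34% of all genes, and 12 at least 2-fold, against 2.37%, with a median of -2.34. Elovl6, a fatty acid elongase, read 5132.5 and 237 (-4.44), Agpat2, an acyltransferase of triglyceride synthesis, -4.27, Fasn, the fatty acid synthase, -3.77, and Slc25a1, the citrate carrier, -3.70. On the same scale the median of sterol synthesis was -0.41. Among the members, the Insig1 value of -2.37 alone reached the median of the fatty acid list. The difference between the lists has no test. Agpat2 also stands in the adipocyte marker list, whose median was -3.06. The part of fat cells in the values of either list was not tested.

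**Figure D5:**
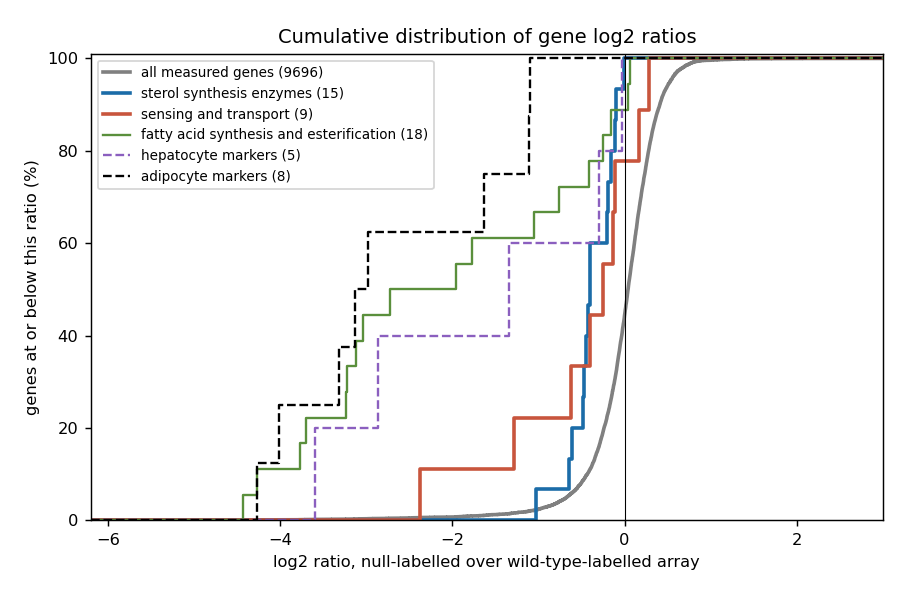
Cumulative share of genes (y axis, percent) at or below each log2 ratio (x axis, null over wild-type) for all 9696 genes, 15 sterol synthesis enzymes, 9 sensing and transport genes and comparison lists, with the number of measured genes in brackets. The sterol synthesis line (median -0.41) lies left of all genes (0.04) and right of fatty acid synthesis (-2.34) and adipocyte markers (-3.06).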

How the data were processed

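The deposited values are linear MAS5 signal intensity for each probe set, MAS5 being the tool in the submitters' processing notes, with no version stated there. The 2% trimmed mean was 500.003 on both arrays, so the authors' values were used as deposited. The table has no detection calls and 0 columns of other samples.

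Of 45037 probe sets that are not controls, 34945 had 1 gene symbol, 932 several and 9160 were unnamed here. The 64 control probe sets stayed out. A gene's value is the log2 ratio averaged over its measured probe sets, computed here from the deposited intensity. Counts use 1.5-fold and 2-fold. With 1 array per genotype no test was run. The steps were tested on simulated data.

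Named were all members, and of each comparison list of pathway genes the 4 measured genes with the largest absolute log2 ratio. The same rule was set for the marker lists but not carried through. Of the genes it gave there, only Ucp1, S100b, Adipoq, Agpat2, Hp, Alb and Cd163 were named as markers. Members and lists were chosen with earlier results of these data known. Other genes named (Abca2, Cox8b, genes under the floor) were chosen after their values were seen. Alternatives were median centring, quantile normalization, loess (span 0.3), floors at the 75th and 50th percentile or none, the brightest probe set, probe sets without _s_at and _x_at, a pseudocount of 50 and, added after seeing the data, probe sets that pass the floor on at least 1 array. Python 3.11.15, pandas 2.3.3 and statsmodels 0.14.6 were used.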

Additional observations from a re-analysis of the deposited data

How the results depend on the processing

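The median of the synthesis enzymes stayed below 0 in all 10 alternatives, from -0.48 after loess to -0.20 with the floor at the 50th percentile, and the median of sensing and transport genes did too, from -0.62 to -0.07 (-0.069 without a floor). The -0.62 came with the floor at the 75th percentile, which left 5 of these genes. The difference between the medians, -0.15, changed sign to 0.088 with the floor at the 50th percentile, to 0.22 at the 75th and to 0.0084 when passing the floor on 1 array was enough. The count of members at least 1.5-fold lower ranged from 5 to 8 and the count higher was 0, except 1 without a floor (Scap, whose dim probe set read 7.6 and 40.4). Without a floor 16.8% of all genes were 1.5-fold lower, against 6.34%. Of the 24 measured members, 16 kept 1 direction in every alternative that measured them. For those with 1 probe set, such as Pmvk, Nsdhl, Ebp and Dhcr7, changes of floor or probe set could not turn the direction. Cyp51 is among the 16, although its measured probe sets disagree. Abca1 turned to 0.024 without a floor, where its 2 dim probe sets enter, and was short of 1.5-fold with the floor at the 50th percentile (-0.19). Abcg1, Fdft1, Hsd17b7, Scap and Mvk also turned without a floor, Mvk with the floor at the 50th percentile too, Sc5d with the brightest probe set and at the 75th percentile, and Msmo1 after quantile normalization. No paired analysis was possible because each genotype has 1 array. Signals near the floor of 182 limit Mvk, Sqle, Cyp51 and Hsd17b7 most.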
